A study of Mus musculus with 10 samples.

Results

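The genes described here are 10 that report on antibody production in RNA from mouse knee cartilage. They are the heavy chain constant region genes Ighm, Ighd, Igha, Ighg1, Ighg2b, Ighg2c and Ighg3, the kappa light chain constant gene Igkc, the joining chain gene Jchain, and Sdc1, which encodes the plasma cell surface protein syndecan 1 (CD138). They were chosen by symbol, were all found among the 35705 genes with a value, and all passed the filter of a mean of at least 1 TPM that left 13841 genes to test. TPM expresses how abundant a transcript is per unit of its length, scaled so that every library has an equal sum. RNA was sequenced from the articular cartilage cap of the medial knee of 10 mice, 5 wild-type controls and 5 mice with a null genotype for the microRNA gene Mir324 (Mir324-null), with 1 library per mouse and no treatment in either group. The null genotype is that of the whole animal as far as the labels say, and the age, sex, strain, litter and batch of the mice are not given in them. No transcript of Mir324 itself was among those analysed here, so the genotype labels were not checked on the deleted gene.

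A B cell carries its antibody on the surface as a receptor, and the plasma cell that it can become secretes the antibody in bulk. The isotype is set by the heavy chain constant region: IgM and IgD are made from the unswitched locus, and class switching joins the same variable region to a gamma (IgG), epsilon (IgE) or alpha (IgA) gene farther downstream. Bone marrow, which fills the bone beneath the cartilage, is both the site where mouse B cells are made and a home of long-lived plasma cells. The labels name the samples as chondrocytes, the cells of cartilage. The cartilage genes Acan, Col2a1 and Prg4 were present, at 146 ± 83.4, 91.4 ± 31.9 and 2902 ± 1492 TPM in wild-type mice (mean ± SD, n = 5). The means of these genes were lower in the Mir324-null mice. Of the 9 chondrocyte markers listed, Matn3 and Col9a1 averaged less than 1 TPM and were below the filter. Genes of blood-forming cells were abundant as well. From 11.2% to 26.1% of each library's TPM came from haemoglobin genes, and from 0.668% to 0.941% from the 7 heavy chain genes with the kappa and lambda constant genes.

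Each heavy chain gene has 2 annotated transcripts, which differ at the 3′ end. Except in Ighd, the secreted form ends inside the last constant domain exon. In Ighd the secreted end is an exon of its own. The membrane form of each gene skips the secreted ending and is spliced to exons for a transmembrane segment. The ends of the coding sequence are shown because the measured values of Ighm split between them. All 7 heavy chain genes lie on the minus strand of chromosome 12 in GRCm38, and the sequences are from the GENCODE M21 transcripts. The last 30 bases that both forms share are in lower case, and the bases particular to the form, up to and including the stop codon, are in capitals.
Ighm-201, secreted IgM, chr12:113420867-113420928: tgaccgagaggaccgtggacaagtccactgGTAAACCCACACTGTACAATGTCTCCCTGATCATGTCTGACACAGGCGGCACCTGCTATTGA
Ighm-202, membrane IgM, chr12:113418826-113419068 (2 exons): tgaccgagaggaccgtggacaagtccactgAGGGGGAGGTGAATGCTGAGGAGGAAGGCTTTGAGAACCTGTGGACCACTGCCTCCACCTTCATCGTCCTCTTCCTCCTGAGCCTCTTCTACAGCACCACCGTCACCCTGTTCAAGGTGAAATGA
Igha-201, secreted IgA, chr12:113258768-113258829: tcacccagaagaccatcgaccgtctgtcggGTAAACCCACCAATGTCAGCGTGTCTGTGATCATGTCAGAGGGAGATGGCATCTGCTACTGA
Ighg2b-201, secreted IgG2b, chr12:113306389-113306396: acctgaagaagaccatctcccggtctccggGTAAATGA
The secreted ends of IgM and IgA are tailpieces of 62 bases each, the part of these chains through which the joining chain links IgM and IgA into polymers. They were identical at 43 of the 62 positions (69.4%), whereas the secreted end of IgG2b has 8 bases of its own. The membrane end of IgM has 125 coding bases of its own. Over the whole transcript the IgM forms differ by 188 bases found only in Ighm-201 and 393 found only in Ighm-202, so the split between them rests on reads from those stretches.

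The isotypes themselves can be told apart by sequence. Of the stretches of 31 bases in the secreted transcripts, all those of Ighm, Ighd and Igha (100%) occurred in no other isotype, as did 99.2% of those of Ighg1 and 97.6% of those of Ighg3. The closest pair was Ighg2b and Ighg2c, which were 86.8% identical over 1109 aligned bases, and 87.3% and 88.3% of their stretches occurred in no other isotype. Values of this pair therefore carry some uncertainty in how shared reads were divided.

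The kappa light chain was the most abundant of the 10 and the steadiest. Igkc (chromosome 6, 70726435 to 70726966, plus strand) encodes the constant part of the light chain carried by most mouse antibodies. It stood at 3976, 5488, 4807, 4103 and 5207 TPM in wild-type mice 1 to 5, and at 5588, 4718, 5437, 4845 and 5812 TPM in Mir324-null mice 1 to 5. The groups overlapped, although all 5 null mice lay above the wild-type mean, and the null values included the highest of the 10. The means were 4716 ± 665 and 5280 ± 476 TPM (SD, n = 5 each), a log2 change of 0.17 (SE 0.111) that did not pass the test across all genes (limma, adjusted p = 0.613; exact permutation p = 0.175). The coefficient of variation, the SD as a percentage of the mean over the 10 mice, was 12.4% for Igkc, against 190% for Ighg3 and 104% for Ighg1.

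**Figure D1:**
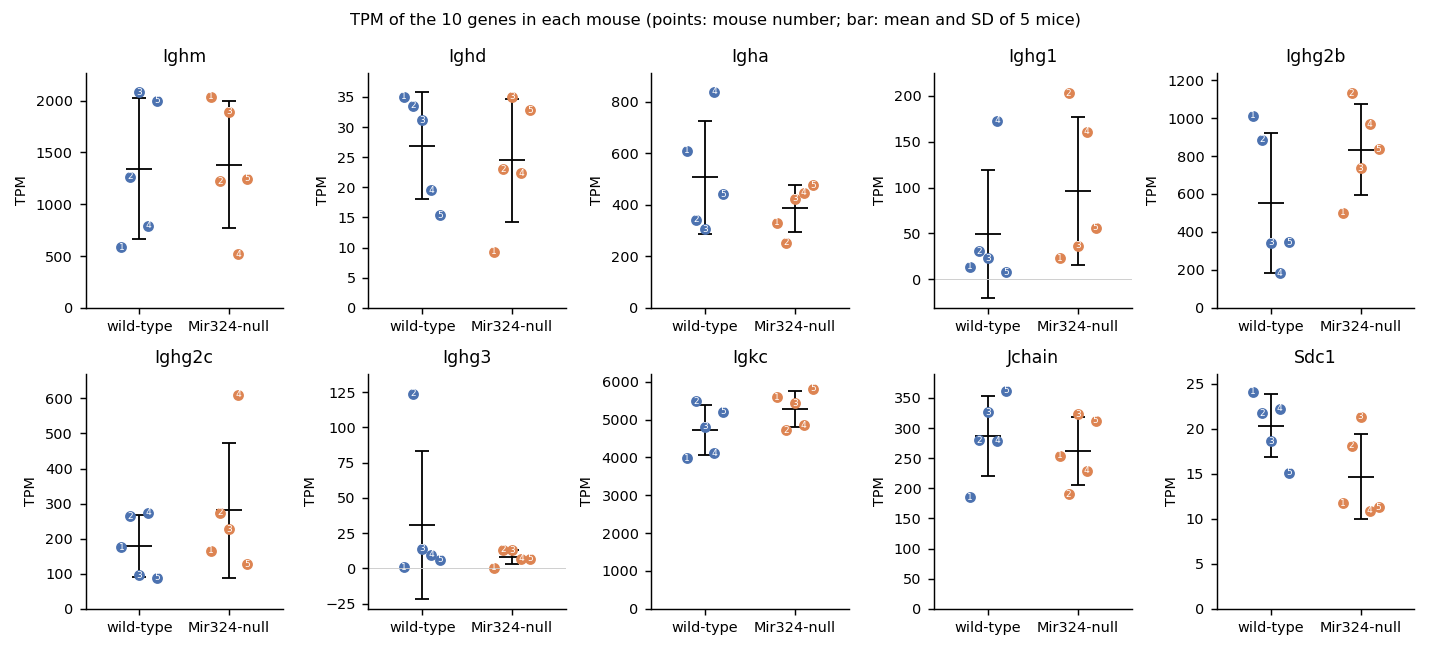
TPM (vertical axes, linear, each gene on its own scale) of the 10 genes in wild-type (blue) and Mir324-null (orange) mice; numbers in the points are mouse numbers and bars show the mean and SD of 5 mice. The groups overlap in every panel, Igkc lies between 3976 and 5812 TPM, wild-type mouse 2 stands far above the rest for Ighg3 (124 TPM), and Ighg1 is high in wild-type mouse 4 and null mice 2 and 4.

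In order of mean TPM over the 10 mice, Igkc (4998) was followed by Ighm (1363), Ighg2b (693), Igha (447), Jchain (274), Ighg2c (230), Ighg1 (72.7), Ighd (25.7), Ighg3 (19.5) and Sdc1 (17.5). The ranges of Igkc and Ighm did not overlap. Every other pair of neighbours in this order overlapped in range, and Ighm exceeded Ighg2b in 8 of the 10 mice. Ighg3 exceeded Sdc1 in 1 mouse, its mean resting on wild-type mouse 2.

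IgM was the leading heavy chain on average and varied widely among mice of one genotype. Ighm (113418558 to 113422730) encodes the mu chain, the first isotype that a B cell makes. Its values were 583, 1267, 2079, 792 and 1997 TPM in the wild-type mice and 2038, 1221, 1894, 518 and 1246 TPM in the null mice. High and low mice occurred in both groups, which overlapped almost fully. The means of 1343 ± 681 and 1383 ± 609 TPM (SD, n = 5) gave a log2 change of 0.0649 (SE 0.422; limma adjusted p = 0.976). Its sign turned when wild-type mouse 1 or 4, or null mouse 1 or 3, was left out (log2 change between -0.19 and -0.0832), so no direction is given for Ighm.

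IgD was scarce. Ighd (113406604 to 113416324) encodes the delta chain, made together with IgM on the surface of mature B cells by alternative splicing of one primary transcript. It was between 15.4 and 35.0 TPM in wild-type mice and between 9.28 and 35.0 TPM in null mice, with means of 26.9 ± 8.86 and 24.5 ± 10.2 (SD, n = 5). The log2 change of -0.19 (SE 0.335; limma adjusted p = 0.904) turned to 0.11 without null mouse 1, which had the lowest value.

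IgA, the isotype of mucosal secretions, was present in every mouse. Igha (113254830 to 113260236) stood at 611, 342, 306, 839 and 441 TPM in the wild-type mice and at 331, 253, 424, 448 and 476 TPM in the null mice. All 5 null mice lay below the wild-type mean, which wild-type mice 1 and 4 raised, and the groups overlapped. The means were 508 ± 220 and 387 ± 92.4 TPM (SD, n = 5), with a log2 change of -0.33 (SE 0.269; limma adjusted p = 0.708, exact permutation p = 0.365). The log2 change was -0.12 without wild-type mouse 4 and -0.18 without null mouse 2.

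Among the IgG genes, Ighg2b led in 9 of the 10 mice and Ighg2c in wild-type mouse 4. Ighg2b (113302965 to 113307933) was at 1011, 885, 342, 181 and 346 TPM in wild-type and at 500, 1130, 735, 967 and 837 TPM in null mice. Of the null mice, 4 exceeded the wild-type mean of 553 ± 370 TPM, and their own mean was 833 ± 238 (SD, n = 5). The groups overlapped, with wild-type mouse 1 second only to null mouse 2. The log2 change of 0.82 (SE 0.424) had a limma adjusted p of 0.489 and an exact permutation p of 0.135, and was 0.49 without wild-type mouse 4.

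Ighg2c (113285325 to 113288932) was at 175, 264, 95.4, 274 and 89.0 TPM in wild-type and 166, 274, 227, 611 and 127 TPM in null mice. Null mouse 4 was the highest of the 10, and the other null mice lay within the wild-type range. The means were 180 ± 88.7 and 281 ± 193 TPM (SD, n = 5), with a log2 change of 0.57 (SE 0.433; limma adjusted p = 0.675) that was 0.24 without null mouse 4. Ighg1 (113325240 to 113330523) was at 13.3, 30.1, 22.7, 173 and 7.64 TPM in wild-type and at 22.8, 203, 36.6, 161 and 55.8 TPM in null mice. High values occurred in both groups, in wild-type mouse 4 and null mice 2 and 4. The change of 1.35 log2 units (SE 0.790; limma adjusted p = 0.556) was the largest estimate of the 10 genes and had a 95% interval from -0.38 to 3.07.

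Ighg3 (113356224 to 113361232), whose product is typical of responses to bacterial polysaccharides, was at 0.888, 124, 13.9, 9.73 and 5.97 TPM in wild-type and at 0.620, 13.1, 13.0, 6.88 and 6.97 TPM in null mice. The value of wild-type mouse 2 lay apart, and the highest and lowest of the 10 mice differed 200-fold. The log2 change of -0.74 (SE 0.945; limma adjusted p = 0.846) turned to 0.10 without that mouse. Ighe was at 0.0125 ± 0.0279 TPM in wild-type and 0.0468 ± 0.105 in null mice (SD, n = 5), below the filter, and Ighg2a was not analysed here.

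Although single isotypes varied, their sum was steady. The 7 heavy chain genes together gave between 2288 and 2945 TPM in wild-type and between 2734 and 3364 TPM in null mice, a coefficient of variation of 11.1% over the 10 mice, while the separate genes ranged from 35.5% (Ighd) to 190% (Ighg3). Light chain constant genes together stood at 1.65 to 2.24 times the heavy chain sum. In bulk tissue, fewer cells of a type and less RNA per cell cannot be told apart.

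As a share of the heavy chain sum, the isotypes composed each mouse differently. IgM held 24.0%, 43.0%, 71.9%, 34.6% and 68.8% in the wild-type mice and 66.4%, 39.2%, 56.3%, 18.9% and 44.8% in the null mice. It was the largest share in 7 of the 10 mice; Ighg2b was the largest in wild-type mouse 1 (41.6%) and null mouse 4 (35.4%), and Igha in wild-type mouse 4 (36.7%). Ighg2b held between 7.89% and 41.6% in wild-type and between 16.3% and 36.2% in null mice. IgA held between 10.6% and 36.7% in wild-type and between 8.12% and 17.1% in null mice, where all 5 lay below the wild-type mean of 19.8%.

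None of the 7 shares differed between genotypes beyond the spread between mice. The difference in mean share, null minus wild-type, was -3.34 percentage points for Ighm (two-sided exact permutation p = 0.770), -6.83 for Igha (exact permutation p = 0.270) and 7.29 for Ighg2b (exact permutation p = 0.357). For Ighg2c it was 2.66 (exact permutation p = 0.603), for Ighg1 1.21 (exact permutation p = 0.524), for Ighg3 -0.805 (exact permutation p = 0.405) and for Ighd -0.192 (exact permutation p = 0.381). After Benjamini-Hochberg adjustment over the 7 shares the smallest p was 0.704. Single mice carried much of these differences. Without wild-type mouse 4 the difference was -2.62 percentage points for Igha, 4.10 for Ighg2b and 2.60 for Ighg1; for Ighg2b it was 12.5 without wild-type mouse 1, for Ighg1 0.395 without null mouse 2, and for Ighg3 -0.0216 without wild-type mouse 2. Summed over the IgG genes, the share was 30.7% ± 15.6 in wild-type mice and 41.0% ± 16.8 in null mice (SD, n = 5).

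**Figure D2:**
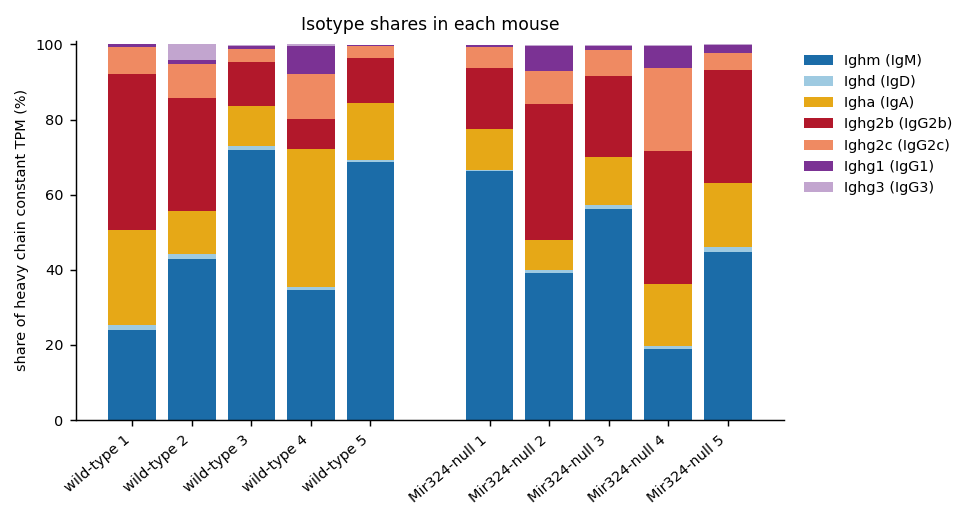
Share of the summed heavy chain constant TPM (vertical axis, percent) held by each of the 7 isotypes in each mouse, 1 stacked bar per mouse. The IgM share runs from 18.9% to 71.9%, and both genotypes hold mice with mostly IgM and mice with mostly switched isotypes.

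Light chains were mostly kappa. Igkc made up 91.4% ± 3.65 of the light chain constant TPM in wild-type and 93.1% ± 2.51 in null mice (SD, n = 5; difference 1.71 percentage points, exact permutation p = 0.413), with a range over the 10 mice of 86.2% to 96.0%. Without wild-type mouse 3 the difference was 0.409 percentage points. The lambda constant genes Iglc1 and Iglc3 stood at 167 ± 39.6 and 90.8 ± 21.7 TPM in wild-type and 152 ± 76.9 and 88.0 ± 24.3 TPM in null mice (SD, n = 5). Iglc2 was at 525 TPM in wild-type mouse 3 and at 360 TPM in null mouse 3, and at 138 TPM or less in the remaining 8 mice. The log2 change of Iglc1, Iglc2 and Iglc3 lay between -0.26 and -0.0576 (smallest limma adjusted p 0.819), and Iglc4 was below the filter.

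The switched isotypes were almost wholly in the secreted form. The secreted transcript made up at least 99.7% of Igha and 98.9% of Ighg1 and Ighg2c in every mouse, and at least 99.5% of Ighg2b. For Ighg3, at its low level, it made up between 58.6% and 99.6%. Ighd was the reverse, with at most 8.51% in the secreted form. IgM held both: the secreted transcript made up 38.0%, 76.7%, 79.8%, 59.8% and 82.1% of Ighm in the wild-type mice and 89.7%, 76.8%, 84.6%, 60.1% and 79.3% in the null mice. The mean secreted share of 67.3% ± 18.6 in wild-type and 78.1% ± 11.2 in null mice (SD, n = 5) differed by 10.8 percentage points, which was within the spread between mice (two-sided exact permutation p = 0.302). Without wild-type mouse 1, which had the lowest share, the difference was 3.53 percentage points (exact permutation p = 0.603).

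The 2 forms of IgM varied in different ways. The secreted transcript Ighm-201, the one with the tailpiece shown above, was at 221, 971, 1660, 473 and 1639 TPM in wild-type and at 1828, 938, 1603, 311 and 988 TPM in null mice. It spanned from 221 to 1828 TPM, and the groups overlapped (log2 change 0.32, SE 0.627, limma adjusted p = 0.949 over 31817 transcripts). The membrane transcript Ighm-202 was at 361, 295, 420, 318 and 358 TPM in wild-type and at 210, 283, 291, 206 and 258 TPM in null mice. Every null mouse lay below every wild-type mouse.

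The means of the membrane transcript were 351 ± 47.6 and 250 ± 39.7 TPM (SD, n = 5), a ratio of 0.712. Its log2 change of -0.49 (SE 0.129) had an unadjusted limma p of 0.00312 and did not pass adjustment over all transcripts (adjusted p = 0.558). The exact permutation p was 0.00794, the smallest that 5 mice against 5 allow. This transcript was singled out after its values had been seen, and null values lay below all wild-type values for 0.742% of the transcripts tested. No transcript passed at an adjusted p under 0.05 (0% of 31817). Summed over the 7 genes, the membrane forms gave 330 to 453 TPM in wild-type and 222 to 326 TPM in null mice, of which IgM held between 87.8% and 95.2%.

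**Figure D3:**
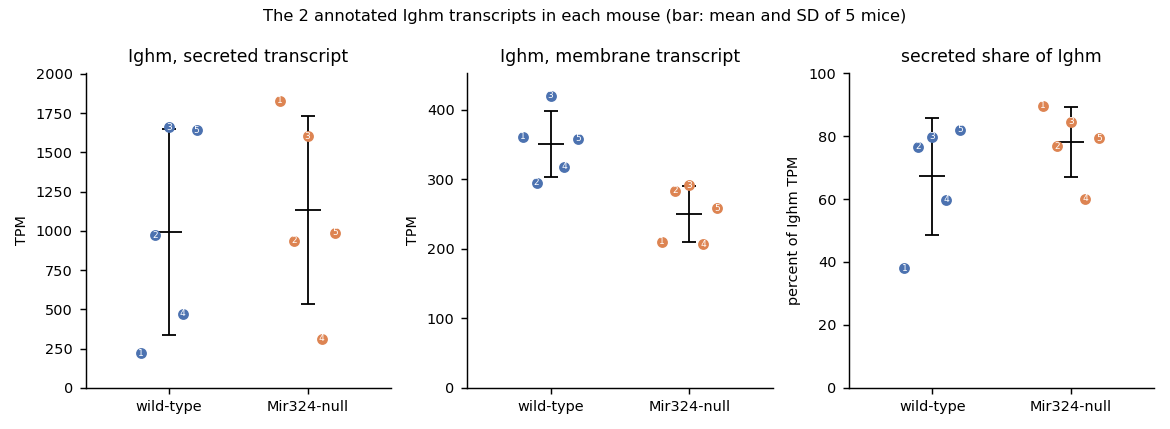
TPM of the secreted and the membrane transcript of Ighm and the secreted share of the gene (percent) in wild-type (blue) and Mir324-null (orange) mice; points carry mouse numbers and bars show the mean and SD of 5 mice. The secreted form overlaps between genotypes, whereas the membrane form lies between 295 and 420 TPM in wild-type and between 206 and 291 TPM in null mice.

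Membrane IgM needs the signalling partners Cd79a and Cd79b to reach the surface, and both genes had lower means in the null mice. Cd79a was at 117 ± 15.7 and 88.8 ± 25.3 TPM, and Cd79b at 123 ± 10.6 and 92.7 ± 21.3 TPM (wild-type and null, SD, n = 5). Each had a log2 change of -0.44, with limma adjusted p-values of 0.389 and 0.338. Relative to Cd79a, the membrane transcript stood at 2.99 ± 0.283 in wild-type and 2.92 ± 0.576 in null mice (SD, n = 5; difference of mean log2 ratios -0.0513, exact permutation p = 0.730). Relative to Cd79b the ratio was 2.85 ± 0.378 and 2.75 ± 0.392 (SD, n = 5), with a difference of mean log2 ratios of -0.0540 (exact permutation p = 0.675). Relative to Ighd it was 14.4 ± 5.72 and 12.1 ± 6.15 (SD, n = 5). The groups overlapped in each ratio. The tests of the ratios to Cd79a and Cd79b were added after the values had been seen. With log2 changes of -0.49 for the membrane transcript and -0.44 for each partner, small differences in these 2 ratios followed from the values. The tests therefore add nothing to those changes. Other mature B cell markers, whose log2 changes ran from -0.68 to 0.09, were not used as denominators. The part of B cell content in the membrane values was not tested.

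Most other listed genes of the B lineage stood in the same direction without passing the test. Of 10 mature B cell markers, 9 had lower estimates in the null mice (median log2 change -0.44 against -0.0452 over all genes tested), and their summed TPM ranged from 309 to 422 in wild-type and from 187 to 355 in null mice. Pax5, which holds B cell identity, was at 23.2 ± 4.93 and 16.4 ± 6.05 TPM, and Blk, a kinase of B cell receptor signalling, at 14.4 ± 2.85 and 10.2 ± 2.59 (SD, n = 5; limma adjusted p = 0.392 and 0.351). The mature marker with a higher estimate was Fcer2a, at 4.59 ± 1.89 and 5.02 ± 2.20 TPM (SD, n = 5, log2 change 0.0927, limma adjusted p = 0.953). The log2 change was -0.0395 for Bank1 and -0.15 for Cd22. Lower estimates were found for 60.0% of all genes tested. All 8 markers of B cell precursors had lower estimates (median -0.34; summed TPM 242 to 308 in wild-type, 128 to 300 in null mice). Vpreb3, which had the lowest estimate of the 8, was at 122 ± 17.3 and 76.4 ± 21.2 TPM (SD, n = 5, log2 change -0.70, SE 0.186, limma adjusted p = 0.287). The other estimates ran from -0.55 (Rag1) to -0.0656 (Dntt). Among them were Igll1 (-0.50) and Vpreb1 (-0.34), which was highest of the 10 mice in null mouse 3 (64.6 TPM).

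The joining chain, made by antibody-secreting cells and added to polymers of IgM and IgA, was similar in both genotypes. Jchain (chromosome 5, 88519809 to 88527891, minus strand) stood at 185, 280, 326, 279 and 362 TPM in wild-type and at 254, 190, 323, 229 and 312 TPM in null mice. The groups overlapped, and the highest and the lowest mouse were both wild-type. The means were 286 ± 66.6 and 262 ± 56.2 TPM (SD, n = 5; log2 change -0.12, SE 0.190, limma adjusted p = 0.881), with a 95% interval of the log2 change from -0.54 to 0.29. Leaving out single mice moved the log2 change between -0.27 (without wild-type mouse 1) and -0.0133 (without null mouse 2).

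Across the 10 mice, Jchain went up and down most closely with Ighm among the other 9 genes. On log2(TPM + 1), Pearson's r was 0.65 (permutation p = 0.0427, adjusted 0.251 over 9 relations) and Spearman's rho 0.71 (permutation p = 0.0259, adjusted 0.157). Without null mouse 2 and wild-type mouse 1, the mice farthest from the median of Jchain, r was 0.68 (exact permutation p = 0.0643) and rho 0.57 (exact permutation p = 0.151). Ighg2b was highest where Jchain was low, with rho of -0.68 (permutation p = 0.0349, adjusted 0.157) and r of -0.56 (permutation p = 0.0946, adjusted 0.251), and without those mice r was -0.30 (exact permutation p = 0.465) and rho -0.40 (exact permutation p = 0.327). For Ighg2c, r was -0.53 (permutation p = 0.112, adjusted 0.251) and rho -0.62 (permutation p = 0.0593, adjusted 0.178), and without those mice r was -0.81 (exact permutation p = 0.0144) and rho -0.81 (exact permutation p = 0.0218).

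None of the 9 relations passed adjustment, and the points share their library and its fixed TPM total. Igha, whose product also binds the joining chain, showed r of 0.04 (permutation p = 0.910, adjusted 0.946) and rho of -0.13 (permutation p = 0.734, adjusted 0.826); without the same mice r was -0.06. Over all 13840 other genes tested, the highest Spearman rho with Jchain over the 10 mice belonged to Taf7 (0.87), Tcea1-ps1 (0.85), Uqcrc2 (0.84), Zfp428 (0.83), E030024N20Rik (0.83), Fgf7 (0.83), Ighv8-8 (0.82) and Gm5791 (0.82). Among these, Ighv8-8 is a heavy chain variable segment. Ighm came at rank 42.

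Syndecan 1, a heparan sulphate proteoglycan that marks plasma cells and is also made by other cells, was the one gene of the 10 with an unadjusted limma p under 0.05. Sdc1 (chromosome 12, 8771323 to 8793715, plus strand) was at 24.1, 21.7, 18.6, 22.2 and 15.1 TPM in wild-type and at 11.7, 18.1, 21.3, 10.9 and 11.3 TPM in null mice. Null mice 1, 4 and 5 lay below every wild-type mouse, and null mice 2 and 3 within the wild-type range. The means of 20.4 ± 3.55 and 14.7 ± 4.75 TPM (SD, n = 5) gave a log2 change of -0.48 (SE 0.197). The unadjusted limma p of 0.0315 became 0.386 after adjustment over all genes, and the exact permutation p was 0.0635. The unadjusted limma p exceeded 0.05 without wild-type mouse 1, 2 or 4, or without null mouse 1, 4 or 5 (0.0621 to 0.0796).

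Most markers of bone and cartilage cells had lower estimates beside Sdc1. Of 7 osteoblast markers all had lower estimates in the null mice (median log2 change -0.91, with summed TPM 4913 to 12359 in wild-type and 2840 to 5748 in null). The same held for 6 of the 7 chondrocyte markers tested (median -0.66), and the remaining 1 had a log2 change of 0.17. None of these markers passed (smallest limma adjusted p 0.287 for osteoblast and 0.319 for chondrocyte markers), and 60.0% of all genes tested had lower estimates. The epithelial markers Krt5 and Krt14 were listed at 0 in every library, Epcam was at 9.24 ± 3.67 and 5.29 ± 1.59 TPM, and Cdh1 at 0.929 ± 0.33 and 1.20 ± 0.318 TPM (SD, n = 5). The part of these cells in the Sdc1 values was not tested. The other syndecans had lower estimates too: Sdc4, widespread among cell types, was at 60.7 ± 27.2 and 34.3 ± 4.70 TPM without overlap of the groups (SD, n = 5; log2 change -0.72, SE 0.229, limma adjusted p = 0.319), where 1.94% of all genes tested showed no overlap. Sdc3 was at 69.3 ± 10.6 and 56.0 ± 6.95 TPM and Sdc2 at 18.7 ± 6.78 and 14.6 ± 6.04 TPM (SD, n = 5; limma adjusted p = 0.387 and 0.696).

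Taking the 10 genes as a set, 0 of 10 differed between genotypes at a limma adjusted p under 0.05, and the same was true of every gene tested (0% of 13841). At an unadjusted p under 0.05 the count was 1 of 10, against 11.6% of all genes in either direction and 7.30% lower in the null mice. Estimates were higher in null mice for 5 genes and lower for 5, with a median log2 change of -0.0283 against -0.0452 over all genes tested.

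**Figure D4:**
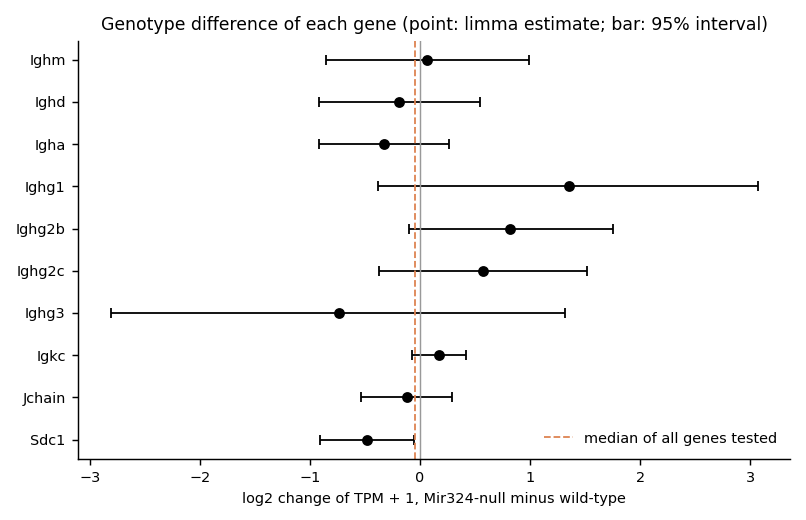
Log2 change of TPM + 1, Mir324-null minus wild-type (horizontal axis), for each of the 10 genes; points are limma estimates and bars 95% intervals, and the dashed line marks the median of all genes tested (-0.0452). The interval is narrowest for Igkc (-0.07 to 0.41), widest for Ighg3 (-2.81 to 1.32), and leaves out 0 for Sdc1 alone, before adjustment.

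Regulators of the plasma cell state were detected in both genotypes. Of 9 genes listed, 8 were tested and none passed (6 lower and 2 higher estimates, median log2 change -0.21). Xbp1, which drives the secretory programme, was at 93.2 ± 12.5 and 89.1 ± 10.8 TPM, and Prdm1, which encodes Blimp-1, the repressor of the B cell programme, at 2.39 ± 0.539 and 1.92 ± 0.762 TPM (wild-type and null, SD, n = 5). Irf4, needed for plasma cell formation, was at 15.6 ± 3.62 and 12.9 ± 4.85 TPM. Pou2af1, a B lineage coactivator of immunoglobulin transcription, was at 50.1 ± 9.13 and 35.5 ± 8.18 TPM (SD, n = 5; log2 change -0.49, SE 0.169, limma adjusted p = 0.338). Tent5c, a poly(A) polymerase that lengthens the tails of immunoglobulin messages, had the opposite sign, at 91.7 ± 25.1 and 122 ± 20.5 TPM (SD, n = 5; log2 change 0.44, SE 0.192, limma adjusted p = 0.414). Tent5c was lowest in wild-type mice 1 and 5 (55.7 and 79.2 TPM), which had the lowest haemoglobin shares (11.2% and 11.7%). It was highest in null mice 4 and 5 (151 and 133 TPM), which had the highest (23.3% and 26.1%). The part of erythroid cells in the Tent5c values was not tested. Tnfrsf17, the survival receptor BCMA, was at 1.25 ± 0.458 and 0.741 ± 0.267 TPM, below the filter.

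No gene for folding and exporting antibody passed the test. Of 18 tested, 14 had lower and 4 higher estimates with a median log2 change of -0.0831, and none reached an unadjusted p under 0.05. Mzb1, a chaperone partner of B lineage cells that aids IgM assembly, was at 52.2 ± 9.06 and 43.2 ± 6.40 TPM, and Hspa5, the endoplasmic reticulum chaperone that binds free heavy chains, at 249 ± 19.5 and 243 ± 39.4 TPM (SD, n = 5). Fkbp11, a folding enzyme, was at 13.1 ± 3.87 and 9.21 ± 3.62 TPM (SD, n = 5; log2 change -0.50, SE 0.264, limma adjusted p = 0.505). Most of these genes also act in other secretory cells.

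The signals that keep plasma cells in marrow were also present. Cxcl12, the chemokine that holds cells with its receptor Cxcr4 in marrow, was at 765 ± 121 and 700 ± 107 TPM, and Cxcr4 at 154 ± 33.9 and 165 ± 31.5 TPM (SD, n = 5). The survival factors Tnfsf13 (APRIL) and Tnfsf13b (BAFF) were at 7.90 ± 2.06 and 7.47 ± 1.18 TPM and at 16.5 ± 4.75 and 14.1 ± 6.78 TPM. None of the 4 niche genes tested passed (smallest limma adjusted p 0.781), and Il6 was below the filter.

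Genes of the germinal centre, where affinity selection takes place, showed no called difference. Mef2b, a transcription factor of germinal centre B cells, was at 0.257 ± 0.172 and 0.241 ± 0.138 TPM (SD, n = 5), below the filter. Of the 4 genes tested, 3 had lower estimates and 1 a higher one. That gene was Gcsam, which encodes a germinal centre signalling protein, at 7.34 ± 1.53 and 11.9 ± 2.85 TPM (SD, n = 5; log2 change 0.62, SE 0.186, limma adjusted p = 0.312).

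Receptors that take up antibody showed no called difference. Of 10 listed, 8 were tested, 4 with higher and 4 with lower estimates (median log2 change 0.0286). Fcgrt, the neonatal Fc receptor that recycles IgG, was at 77.9 ± 10.0 and 64.9 ± 8.50 TPM (SD, n = 5; log2 change -0.26, SE 0.116, limma adjusted p = 0.427). Fcmr, the IgM receptor, was at 21.0 ± 5.62 and 18.8 ± 5.81 TPM, and Fcgr2b, the inhibitory IgG receptor, at 58.0 ± 6.31 and 56.8 ± 11.5 TPM. Pigr, which carries polymeric IgA and IgM across epithelia, was at 0.0471 ± 0.029 and 0.0503 ± 0.0594 TPM (SD, n = 5), and Fcamr was as low.

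**Figure D5:**
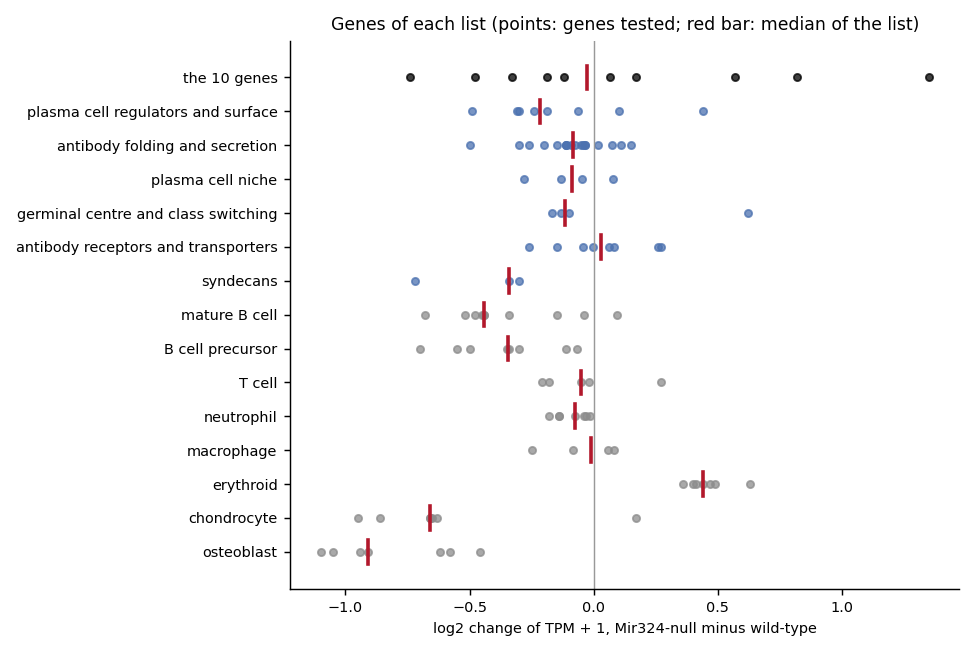
Log2 change of TPM + 1, Mir324-null minus wild-type (horizontal axis), of the genes tested in each list, with the median of the list as a red bar; black points are the 10 antibody and plasma cell genes, blue points lists tied to antibody production and grey points markers of cell types. No gene shown passed adjustment; the 10 genes spread from -0.74 to 1.35, and the list medians lie between -0.91 (osteoblast) and 0.44 (erythroid).

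Markers of other blood cells are set beside these values. The 7 erythroid markers, haemoglobin genes among them, had higher estimates in the null mice (median log2 change 0.44), as had 5534 of the 13841 genes tested. None of the 7 passed (smallest limma adjusted p 0.308). Their summed TPM overlapped, at 112640 to 198844 in wild-type and 159238 to 263631 in null mice. Medians were near 0 for T cell (-0.0502), neutrophil (-0.0747) and macrophage (-0.0121) markers. When haemoglobin genes were taken out and each library rescaled, the log2 change of Sdc1 was -0.40 (limma adjusted p = 0.408) and that of Igkc 0.26 (limma adjusted p = 0.417). The part of blood and marrow content in the isotype values was not tested.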

How the data were processed

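RNA from the articular cartilage of 10 mice was sequenced with 1 library per mouse. The authors deposited transcript abundances as TPM values, and the submitters' processing notes name kallisto, DESeq2 and the build GRCh38; the program version and transcript index are not given in the sources used here, and the identifiers are those of mouse transcripts. Depth is unknown, since TPM carries no counts, so no counting interval was computed.

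Identifiers were matched without version to GENCODE M21 (GRCm38): 115440 of 116912 transcripts matched, and the rest held between 0.275% and 0.356% of TPM. TPM was summed per gene, and log2(TPM + 1) was compared, for the 13841 genes averaging 1 TPM or more, with limma 3.58.1 in R 4.3.3 (eBayes with trend, two-sided, Benjamini-Hochberg over all genes tested, threshold 0.05). This scale understates changes of low genes. Shares, and single genes beside limma, were compared with two-sided exact permutation tests over all 252 splits, and correlations with 100000 permutations (exact with 8 mice), in Python 3.11.15 with scipy 1.17.1. Membrane and secreted forms were assigned from the annotated stop codons, and transcripts with a mean of at least 1 TPM were fitted in the same way. Sequences were aligned with biopython 1.88, and the steps were tested on simulated data. P-values measure the spread between these mice. The 10 genes and the lists were chosen with earlier results of these data known; the genes named are those 10, the listed genes and the 8 most like Jchain, and 1 listed gene is not reported here.

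Alternatives were a pseudocount of 0.1, a mean of at least 5 TPM or no filter, median ratio and quantile scaling, rescaling without haemoglobin or immunoglobulin genes, eBayes without a trend, a replicate block, other denominators and leaving out each mouse. The tests of single transcripts were added after seeing the data.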

Additional observations from a re-analysis of the deposited data

Results flagged for a closer look

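In groups of 5 mice, 5 of 42 sets of values held 1 mouse separated from the other 4 by more than Dixon's critical gap. Chance exceeds that gap in about 1 group of 20 when values are independent and normally distributed. The sets here were not independent, since the shares were computed from the same TPM values, so the count was not compared with that rate. Ighg1 stood at 173 TPM in wild-type mouse 4, where the other wild-type mice had at most 30.1 TPM, and its share of heavy chain TPM was 7.58% in the same mouse. Ighg3 stood at 124 TPM in wild-type mouse 2, where the others had at most 13.9 TPM, and its share was 4.20% there. Ighg2c held 22.3% of heavy chain TPM in Mir324-null mouse 4, where the other null mice had at most 8.78%.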

How the results depend on the processing

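No member passed adjustment under any of the 19 alternatives, and over all genes the count at an adjusted p under 0.05 was 0 in every alternative that kept all 10 mice. Leaving out single mice gave 0 to 1 genes: Gm37419 without wild-type mouse 3, Igkv2-109 without wild-type mouse 4 and Rpl30-ps9 without null mouse 1, each named after its values were seen. At an unadjusted p under 0.05 the count of members was 1, and 2 with quantile normalization (Igkc, log2 change 0.34), 0 without haemoglobin genes, 0 without null mouse 4 or 5, and 3 with the replicate block; without wild-type mouse 1, 2 or 4, or null mouse 1, the 1 member was Ighg2b or Ighg1 in place of Sdc1. Correlations of deviations between same-numbered mice ran from -0.144 to 0.0564, and the labels give no litter or batch, so the numbers were not taken as pairs. Single members differed in this. Under the block the SE fell from 0.790 to 0.415 for Ighg1, from 0.433 to 0.208 for Ighg2c and from 0.945 to 0.443 for Ighg3. It rose for Ighd (0.335 to 0.347) and Igkc (0.111 to 0.134), and fell by less for the other members. Whether these genes vary together by mouse number was not tested. With the block 0 genes passed, and Ighg1 and Ighg2c had unadjusted limma p-values of 0.0114 and 0.0243 (adjusted 0.529 and 0.531). The paired test of shares gave a smallest adjusted p of 0.613.

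Signs turned as follows. When single mice were left out, the log2 change of Ighm ran from -0.19 (wild-type 1) to 0.38 (null 4) and was also below 0 without wild-type 4, null 1 or null 3 (-0.0832, -0.11 and -0.0850), that of Ighd ran from -0.36 to 0.11 (above 0 without null 1), that of Ighg3 from -1.41 to 0.10 (above 0 without wild-type 2) and that of the secreted Ighm transcript from -0.13 (wild-type 1) to 0.73. The share difference of Ighm then ran from -9.46 to 3.21 percentage points and that of Ighg2c from -0.535 to 3.93. Spearman correlations with Jchain turned to 0.24 (Ighd), -0.0476 (Igkc) and 0.24 (Sdc1) without 2 mice, and to 0.15 (Ighd), 0.0667 (Igha) and 0.0788 (Sdc1) after quantile normalization. The cause was not tested. The membrane Ighm transcript kept its sign without each mouse (-0.55 to -0.43, adjusted p from 0.418 to 0.830) and under the block (-0.49, adjusted p = 0.780).

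Depth is unknown, so low values such as Ighg3 and Ighe carry a counting error that cannot be estimated. The 2 IgM forms rest on short stretches, and kallisto's division of reads between them was not checked.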
